A study of Mus musculus with 22 samples.

Results

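The 8 kinesin genes of axonal transport were followed in single retinal cells of the mouse: Kif5a, Kif5b and Kif5c, Klc1, Kif1a, Kif1b, Kif3a and Kif3b. They were chosen by gene name, and all their probe sets were taken, 33 of the 45101 on the array and 8 of the 18193 genes it names. Each of the 22 arrays measured the amplified RNA of 1 cell. The cells were 3 photoreceptors (P0 cells H1 and E1, and an adult rod), 13 ganglion cells (E12.5 with 3 cells, E13.5 with 1, E14.5 with 2, E15.5 with 3 and P0 with 4) and 6 amacrine cells (1 of E16.5 and 5 of P0). No cell was treated or carried a named mutation. The labels give the CD1 strain for 9 cells and no strain for the other 13. The cells came from retinas dissociated with papain, and their cDNA was amplified over 35 PCR cycles.

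Kinesins walk along microtubules, most of them towards the plus end, which in an axon points away from the cell body. Kinesin-1 is built from Kif5 heavy chains, which hold the motor, and light chains such as Klc1, which bind cargo. Its cargoes in neurons include mitochondria, vesicles and neurofilament proteins. Kif5b is made in most tissues, while Kif5a and Kif5c are known as the neuronal heavy chains. Kif1a and Kif1b are kinesin-3 motors that carry synaptic vesicle precursors, and a form of Kif1b carries mitochondria. Kif3a and Kif3b pair in kinesin-2, which drives intraflagellar transport in cilia and also carries vesicles. Ganglion cells send an axon through the optic nerve to the brain, most amacrine cells signal within the retina without a classical axon, and a photoreceptor has a short axon and an outer segment that is a modified cilium.

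Upstream sequences of a pair of members with unlike detection patterns are shown: Kif5c, whose probe set was detected in no photoreceptor, and Kif1b, detected in cells of all 3 types. Both are the 250 bases before the gene's start in RefSeq (GRCm38.p6), Kif5c at chr2:49619036-49619285 on the + strand and Kif1b at chr4:149307734-149307983 on the - strand. Capitals mark the GC box (GGGCGG) and the cAMP response element (TGACGTCA), searched on both strands.
Kif5c: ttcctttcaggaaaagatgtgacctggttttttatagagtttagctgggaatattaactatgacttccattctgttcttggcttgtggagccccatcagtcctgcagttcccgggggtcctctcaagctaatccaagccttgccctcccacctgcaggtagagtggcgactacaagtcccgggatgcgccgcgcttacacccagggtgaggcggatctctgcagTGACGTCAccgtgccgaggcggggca
Kif1b: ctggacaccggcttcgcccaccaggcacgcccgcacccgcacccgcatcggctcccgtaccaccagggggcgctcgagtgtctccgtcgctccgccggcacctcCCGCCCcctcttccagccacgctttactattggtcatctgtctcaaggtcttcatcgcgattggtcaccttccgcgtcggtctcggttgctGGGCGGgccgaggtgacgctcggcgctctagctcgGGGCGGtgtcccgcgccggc
The Kif5c window held 1 cAMP response element, a motif in 1.55% of all 32851 windows of this length, and no GC box, a motif in 32.7% of them. It also held 1 TATAAA (in 12.4% of windows), 1 TAATCC, the core read by the photoreceptor factor Crx (6.25%), and 1 E-box, CANNTG (66.2%). The Kif1b window held 3 GC boxes and 1 E-box and none of the other 3 motifs. None of these matches overlapped another. G and C made up 55.2% of the Kif5c window and 70.0% of the Kif1b window, against a median of 52.4% over all windows. Windows were found for 6 of the 8 members, not for Kif5a and Kif5b. The matches are descriptions of letters and not of bound sites.

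The array gives a signal per probe set. Signals under 200 were set to 200, which is 7.64 on the log2 scale and is called the floor here, and a signal of 1000 or more (log2 9.97) was called detected. Each gene is read from its probe set with the highest mean, and levels are log2 signals of that probe set unless another is named. Levels are compared between cells for a given probe set, never between genes. All 8 members were detected in at least 3 cells by that probe set and so passed the filter for testing, as did 7183 genes in all. No animal is named, so the cells of a type and stage were averaged into 1 sample, giving 2 photoreceptor, 5 ganglion and 2 amacrine samples. The cells may share animals, and the spread between these samples may be in part technical. The fit took each gene's error from the trend of the spread over all genes at its level and not from its own samples, so an SE can exceed the SDs of a gene's samples, as for Kif5c. Differences were tested with limma over all 7183 genes, with Benjamini-Hochberg adjustment, and called at an adjusted p under 0.05.

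The cells detected between 1517 and 4351 genes. The adult rod and amacrine cell J6 stood apart, with a median signal of 192.1 in the rod and 197.7 in J6, against at most 79.1 in the other cells. P0 amacrine cell B1 was deposited on a lower scale and was multiplied by 27.6. Of 11 photoreceptor markers, photoreceptors detected 7 to 11, ganglion cells 0 or 1 and amacrine cells none. Of 12 ganglion markers, photoreceptors detected 1 or 2, ganglion cells 6 to 11 and amacrine cells 0 to 4. Of 11 amacrine markers, photoreceptors detected 1 to 4, ganglion cells 1 or 2 and amacrine cells 4 to 6. The cells were named only after profiling, so the markers are no independent check of the labels. Stage differed with type: only P0 holds all 3 types, and the rod is the only adult cell.

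Kif5c separated the photoreceptors from every other cell. Its probe set 1455266_at had signals of 79.0 in photoreceptor H1, 6.41 in photoreceptor E1 and 168.2 in the adult rod, all under the floor. In the 13 ganglion cells its level had a minimum of 13.497, a median of 14.33 and a maximum of 15.09. In the amacrine cells it was 13.89 at E16.5, and 12.40, 12.44, 13.93, 14.23 and 14.78 in the 5 cells of P0. The lowest amacrine cell thus stood well above the highest photoreceptor, and the ganglion and amacrine cells overlapped. Detection in all 19 ganglion and amacrine cells was shared by 132 tested genes (1.84%), and 14 genes (0.195%) were also detected in no photoreceptor. Besides Kif5c, these 14 were 6330403K07Rik, Arhgap33, Cep170, Crmp1, Dcx, Gng3, Ina, Nnat, Pfkp, Pkia, Sptbn1, Stmn2 and Tubb6.

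**Figure D1:**
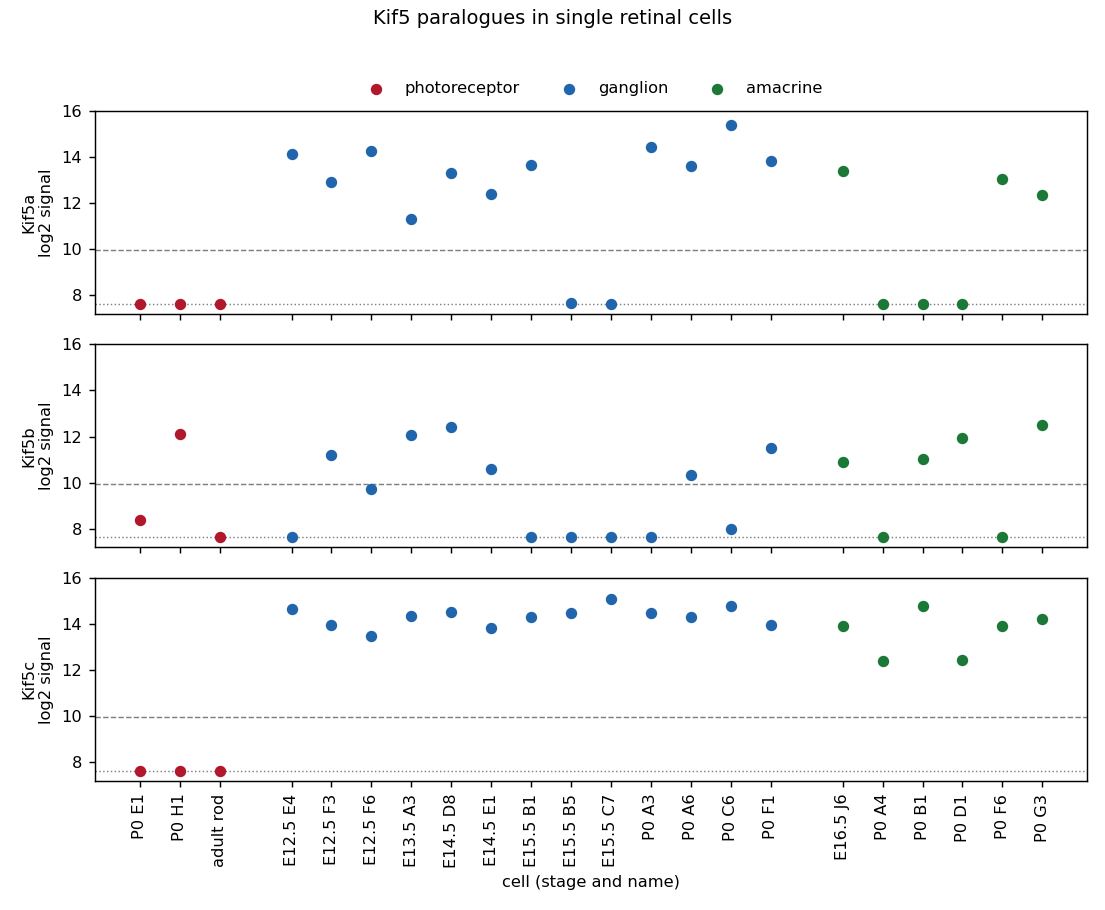
Log2 signal of Kif5a, Kif5b and Kif5c (1 panel each) in every cell, photoreceptors in red at the left, ganglion cells in blue and amacrine cells in green, by stage within a type. The dotted line is the floor of 7.64 and the dashed line the detection level of 9.97: Kif5c lies at the floor in all 3 photoreceptors and above 12 in all other cells, while Kif5a and Kif5b are mixed within cell types.

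Kif5c fell in photoreceptors against ganglion cells and against amacrine cells. Its mean was 7.64 in photoreceptor samples, both at the floor, 14.31 ± 0.22 in ganglion samples (SD, n = 5) and 13.72 ± 0.24 in amacrine samples (SD, n = 2). The photoreceptor minus ganglion difference was -6.66 ± 1.37 (SE; limma, adjusted p = 0.000328), and the photoreceptor minus amacrine difference was -6.08 ± 1.63 (SE; limma, adjusted p = 0.0386). Both comparisons use the same photoreceptors. Because the photoreceptors lie at the floor, the size depends on it: the photoreceptor minus ganglion difference was -7.29 with a floor of 100 and -5.34 with a floor of 500. The call against ganglion cells was kept in all 22 fits that left out 1 cell. The call against amacrine cells was kept in 14 of these 22 and lost without photoreceptor H1 or E1, amacrine J6, F6 or B1, or ganglion B1 or B5 of E15.5 or A3 of E13.5. Without amacrine J6 the difference was -5.91 with an adjusted p of 0.653 (limma).

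The difference in Kif5c between ganglion and amacrine cells did not pass. The ganglion minus amacrine difference was 0.58 ± 1.37 (SE, limma, adjusted p = 0.999), with a 95% interval from -2.09 to 3.26. This SE came from the trend over all genes, while the Kif5c sample means had SDs of 0.22 (ganglion) and 0.24 (amacrine). The p thus does not measure the spread of the Kif5c samples themselves. By sample mean the order was ganglion E15.5 (14.62), P0 (14.39), E13.5 (14.33), E14.5 (14.17) and E12.5 (14.03), then amacrine E16.5 (13.89) and P0 (13.55), and last the photoreceptors. Each step among the ganglion and amacrine samples was smaller than the SD of 1.08 between the P0 amacrine cells. The 5 ganglion means all lay above the 2 amacrine means, as they did for 3.30% of tested genes.

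Kif5a was strong in most ganglion cells, mixed in amacrine cells and at the floor in photoreceptors. Probe set 1434670_at had signals of 33.4 in photoreceptor H1, 6.17 in photoreceptor E1 and 143.2 in the rod. In ganglion cells the level was 14.14, 12.93 and 14.25 at E12.5, 11.33 at E13.5, 13.31 and 12.40 at E14.5, 13.65, 7.69 and 7.64 at E15.5, and 14.44, 13.60, 15.40 and 13.81 at P0. In amacrine cells it was 13.39 at E16.5 and 13.04 and 12.37 in P0 cells F6 and G3, with the other 3 P0 cells at the floor. It was thus detected in 0 of 3 photoreceptors, 11 of 13 ganglion cells and 3 of 6 amacrine cells. The 2 ganglion cells without it, B5 and C7 of E15.5, had Kif5c at 14.48 and 15.09.

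The photoreceptor minus ganglion difference of Kif5a was -4.74 ± 1.48 (SE; limma, adjusted p = 0.0451), from means of 7.64 in photoreceptors and 12.39 ± 1.90 in ganglion cells (SD, n = 2 and 5 samples). This call was near the threshold and was kept in 10 of 22 fits that left out 1 cell. It was lost without any of the 3 photoreceptors, without amacrine J6 or F6, and without ganglion E4 or F6 of E12.5, D8 or E1 of E14.5, B1 of E15.5 or C6 or F1 of P0. The highest of these adjusted p-values was 0.149, without the rod (limma). It was also lost with gene-wise variances (limma's linear model without moderation, adjusted p = 0.341). The photoreceptor minus amacrine difference was -3.89 ± 1.76 (SE; limma, adjusted p = 0.436) and did not pass. The ganglion minus amacrine difference was 0.86 ± 1.48 (SE; limma, adjusted p = 0.999), with an interval from -2.03 to 3.75. Amacrine J6, the only cell of its sample, weighed on both: without it photoreceptor minus amacrine was -2.02 and ganglion minus amacrine 2.72 (limma, adjusted p = 1.00 for both). With cells as units and type and stage as a random group, ganglion minus amacrine was 2.36 (limma, adjusted p = 0.677). The correlation within a type and stage in that fit was 0.006, so it came close to counting cells as independent replicates, which they are not. At P0 alone, Kif5a averaged 14.31 ± 0.81 in 4 ganglion cells and 9.67 ± 2.78 in 5 amacrine cells (SD over cells), a difference of 4.64 with 1 sample on each side and no test. All 4 P0 ganglion cells lay above all 5 P0 amacrine cells, but the share of all tested genes that do so was not taken.

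Kif5b, the widely made heavy chain, was scattered over all 3 types. Probe set 1418428_at gave 12.13 in photoreceptor H1, 8.39 in photoreceptor E1 and 7.64 in the rod. In ganglion cells it had a minimum of 7.64, a median of 9.74 and a maximum of 12.42, and in amacrine cells a minimum of 7.64, a median of 10.96 and a maximum of 12.52. The groups overlapped throughout, with detection in 1 of 3 photoreceptors, 6 of 13 ganglion cells and 4 of 6 amacrine cells. All 3 ganglion cells of E15.5 were at the floor, while the E13.5 cell and both E14.5 cells were detected. No difference passed: photoreceptor minus ganglion was -1.08 ± 1.41 (adjusted p = 0.753), photoreceptor minus amacrine was -1.57 ± 1.69 (adjusted p = 0.799) and ganglion minus amacrine was -0.49 ± 1.41 (SE; limma, adjusted p = 0.999). The intervals, from -3.85 to 1.69, -4.88 to 1.74 and -3.26 to 2.28, leave room for differences of several fold either way. Without the rod, the photoreceptor minus ganglion difference turned to 0.23.

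Kif5b was also found in cells with transcripts of glial markers. At least 2 of 8 glial markers were detected in 9 cells, and 7 of these detected Kif5b, against 4 of the other 13 cells. The share of all tested genes with such a split was not taken, so it cannot be read as particular to Kif5b. Photoreceptor H1 detected 4 of the 8 (Glul, Rlbp1, Clu and Vim), with Slc1a3, Aqp4, Apoe and Gfap at the floor. Summed over the 8, levels above the floor were 0 to 22.3 in photoreceptors, 0.19 to 16.0 in ganglion cells and 1.39 to 15.7 in amacrine cells. Vim was detected in 12 of 13 ganglion cells and 1 amacrine cell, and Glul in 7 ganglion cells and 5 amacrine cells. Slc1a3 was detected in 1 amacrine cell only, Rlbp1 in photoreceptor H1 only, and Clu in 2 photoreceptors and 2 ganglion cells. Gfap, Aqp4 and Apoe were detected in no cell of any type. In ganglion and amacrine cells the marker count thus came mostly from Vim and Glul. The part of glial transcripts in the Kif5b levels was not tested.

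By paralogue, and by the probe set that stands for each gene, 6 ganglion cells detected all 3 Kif5 genes, 5 detected Kif5a and Kif5c, and 2 Kif5c alone. Of the amacrine cells, 2 detected all 3 genes, 2 Kif5b and Kif5c, 1 Kif5a and Kif5c, and 1 Kif5c alone. Photoreceptor H1 detected Kif5b alone, and the other 2 photoreceptors none of the 3. Other probe sets of Kif5b would move some cells between these sets. Any of its 6 was detected in 9 ganglion and 5 amacrine cells, and ganglion C6 of P0 stood at 13.19 by 1418431_at. Every one of the 14 cells with Kif5a also had Kif5c. Since every ganglion and amacrine cell detected Kif5c, this holds for any gene detected in no photoreceptor.

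The 3 Kif5 genes were then compared with each other across cell types, by taking the difference between a pair in each sample and testing it between types (9 tests). Relative to Kif5b, the photoreceptor minus ganglion difference was lower by 5.58 log2 units for Kif5c (-5.58; exact permutation test, two-sided, p = 0.0476, adjusted p = 0.429) and was -3.66 for Kif5a (exact permutation p = 0.143). The p of 0.0476 is the smallest that 2 against 5 samples allow. Between photoreceptors and amacrine cells, 2 samples against 2 cannot go under 0.333, and the Kif5c minus Kif5b value was -4.51. Between ganglion and amacrine cells the values were 1.35 for Kif5a minus Kif5b, 1.08 for Kif5c minus Kif5b and 0.27 for Kif5a minus Kif5c, with exact permutation p from 0.571 to 0.857. None of the 9 passed after adjustment, and none could have. With smallest p-values of 0.0476 and 0.333, the exact permutation test cannot reach an adjusted p under 0.05 over 9 tests. These tests therefore do not decide whether Kif5 use is unequal between the projection neurons and amacrine cells.

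Klc1, the light chain, was detected in 16 cells, 12 of which had Kif5a. All 16 had Kif5c, as did every ganglion and amacrine cell. Probe set 1417005_at was at the floor in photoreceptors H1 and E1 and at 9.57 in the rod. In ganglion cells it was 14.62, 14.83 and 14.58 at E12.5, 12.83 at E13.5, 14.25 and 12.45 at E14.5, 12.34, 13.02 and 7.76 at E15.5, and 9.92, 10.68, 11.23 and 12.49 at P0. In amacrine cells it was 11.86 at E16.5 and 10.56, 10.64, 12.67, 12.83 and 7.64 at P0. It was detected in 0 of 3 photoreceptors, 11 of 13 ganglion cells and 5 of 6 amacrine cells. Among ganglion cells, the 3 of E12.5 were above the other 10 by this probe set, but the share of all tested genes that do so was not taken. By 1428881_at the E12.5 cells were at 10.00, 8.03 and 11.77, with E15.5 cell B5 at 9.45, so they overlapped. By 1417005_at the E12.5 mean was 14.68 ± 0.13 and the P0 mean 11.08 ± 1.08 (SD over 3 and 4 cells). The P0 minus E12.5 difference was -3.60, with 1 sample a stage and no test. The photoreceptor minus ganglion difference was -3.99 ± 1.47 (SE; limma, adjusted p = 0.135) and did not pass, although the samples did not overlap. Photoreceptor minus amacrine was -2.75 ± 1.76 and ganglion minus amacrine 1.23 ± 1.47 (SE), and neither passed. By 1428881_at, the other tested probe set of Klc1, 2 of the 3 signs turned. Photoreceptor minus ganglion was 0.81 ± 1.12, ganglion minus amacrine -1.93 ± 1.12 and photoreceptor minus amacrine -1.12 ± 1.34 (SE), and none passed. The lower Klc1 in photoreceptors than in ganglion cells thus rests on 1417005_at.

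**Figure D2:**
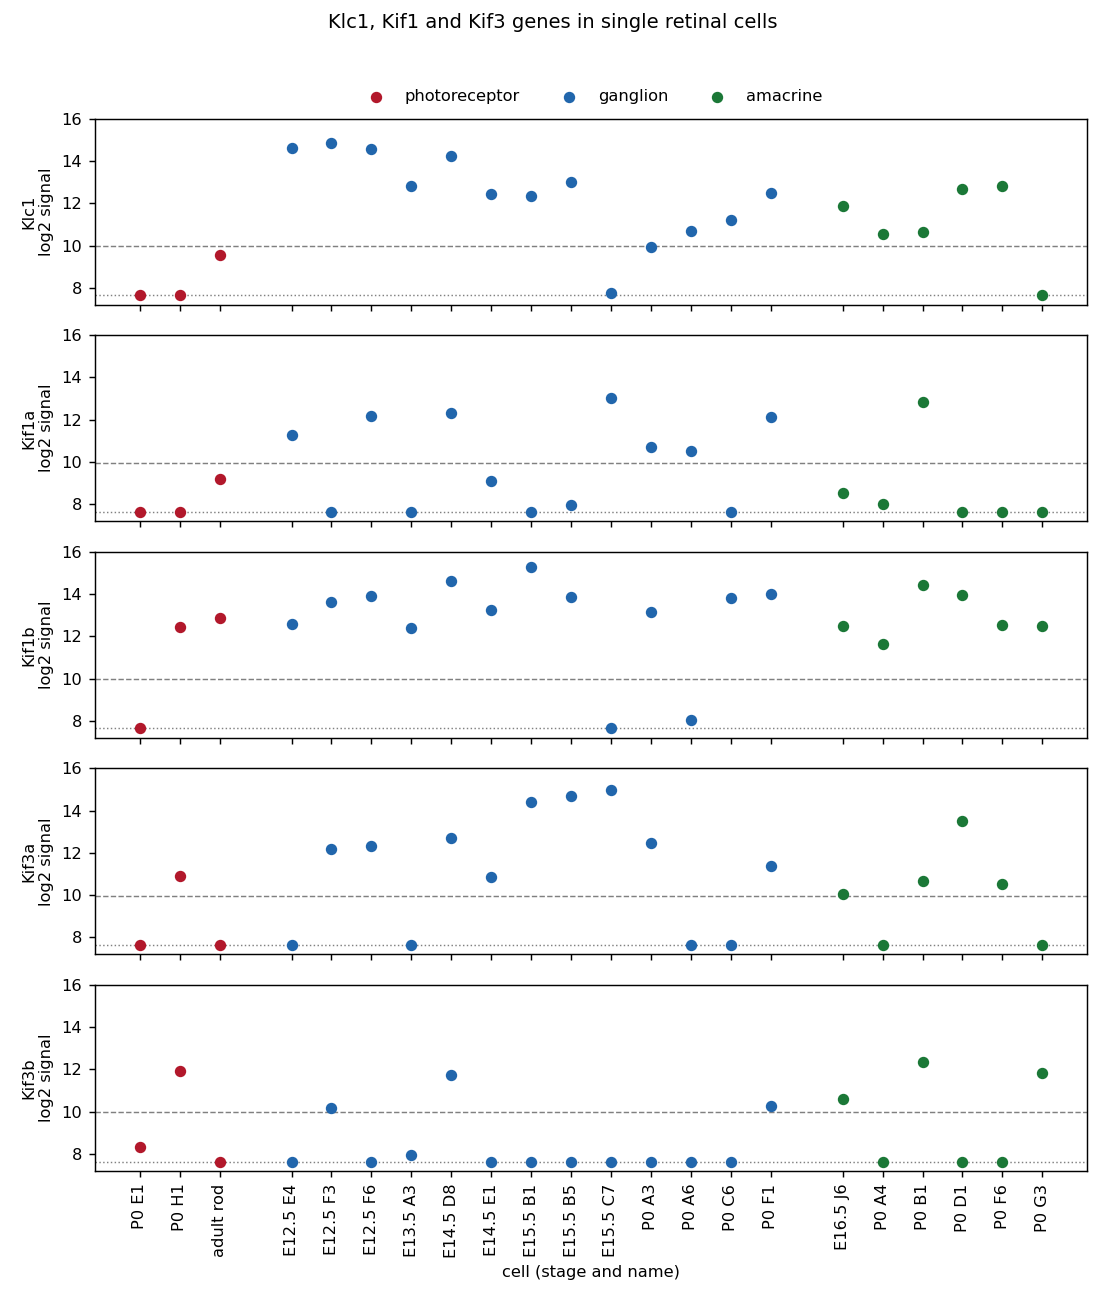
Log2 signal of Klc1, Kif1a, Kif1b, Kif3a and Kif3b (1 panel each) in every cell, photoreceptors in red at the left, ganglion cells in blue and amacrine cells in green, by stage within a type; the dotted line is the floor of 7.64 and the dashed line the detection level of 9.97. By the probe sets that stand for them, Klc1 is highest in the E12.5 ganglion cells (14.58 to 14.83) and Kif3a in those of E15.5 (14.41 to 14.97). The other tested probe sets of both genes do not show this.

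The kinesin-3 motors are read from separate probe sets, whose sensitivities are not known, and each is described by itself. Kif1b (1423994_at) was at 12.45 in photoreceptor H1, 7.64 in photoreceptor E1 and 12.88 in the rod. Ganglion cells had a minimum of 7.64, a median of 13.60 and a maximum of 15.28, and amacrine cells a minimum of 11.63, a median of 12.52 and a maximum of 14.42. It was detected in 2 of 3 photoreceptors, in 11 of 13 ganglion cells (not C7 of E15.5 or A6 of P0) and in all 6 amacrine cells. Kif1a (1450108_at) was detected in 0 of 3 photoreceptors, 7 of 13 ganglion cells and 1 of 6 amacrine cells, the P0 cell B1 at 12.86. Ganglion cells with Kif1a ran from 10.51 to 13.04 and occurred at every stage but E13.5. For neither gene did a comparison of types pass: photoreceptor minus ganglion was -1.38 ± 1.39 for Kif1b and -1.28 ± 1.28 for Kif1a, and ganglion minus amacrine was 0.09 ± 1.39 for Kif1b and 1.05 ± 1.28 for Kif1a (SE).

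By the probe sets that stand for them, the kinesin-2 partners Kif3a and Kif3b differed in the cells that detected them. Other probe sets detected both in the rod, Kif3a at 10.46 (1455652_at) and Kif3b at 10.02 (1450073_at). Kif3a (1436560_at) was at 10.92 in photoreceptor H1 and at the floor in photoreceptor E1 and the rod. It was detected in 9 of 13 ganglion cells and 4 of 6 amacrine cells. In the 3 ganglion cells of E15.5 it was 14.41, 14.67 and 14.97, above every other cell, the next being amacrine D1 at 13.53. The share of all tested genes with such a separation was not taken, and the other Kif3a probe sets did not show it. In E15.5 cells B1, B5 and C7, 1449841_at gave 9.03, 7.64 and 7.64, against 13.86 in P0 ganglion A6. In the same 3 cells 1455652_at gave 11.12, 7.64 and 8.38, against 11.88 in E12.5 ganglion F6. In the 3 E15.5 ganglion cells Kif5b and Kif3b were at the floor, as they were in 8 of the 22 cells in all (1 photoreceptor, 5 ganglion cells and 2 amacrine cells). Kif3b (1420986_s_at) was at 11.91 in H1, 8.33 in E1 and 7.64 in the rod, and was detected in 3 of 13 ganglion cells and 3 of 6 amacrine cells. All 7 cells with Kif3b also had Kif5b, and 6 of the 7 had Kif3a. Over the 22 cells the Pearson correlation of log2 signals was 0.70 between Kif3b and Kif5b and 0.00 between Kif3a and Kif3b, a description of cells that share stages and array scales. The photoreceptor minus ganglion difference was -2.46 ± 1.44 for Kif3a and 0.47 ± 1.15 for Kif3b, and the photoreceptor minus amacrine difference was -1.56 ± 1.72 for Kif3a and -1.12 ± 1.37 for Kif3b (SE), none of which passed.

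Across all 8 members, 2 (Kif5a and Kif5c) fell and none rose in photoreceptors against ganglion cells, where 1.07% of all tested genes fell and 1.91% rose. Against amacrine cells 1 (Kif5c) fell and none rose, where 0.125% of genes fell and 0.445% rose. In ganglion against amacrine cells none passed, where 0.0278% of genes fell and 0.0418% rose. In that comparison 283 of 7183 genes had an unadjusted p under 0.05 (limma), none of them a member, and only 5 genes in all were called. By sample means, 3 members (Kif5a, Kif5c and Klc1) were lower in both photoreceptor samples than in all 5 ganglion samples, against 9.63% of genes, and 4 (these and Kif3a) lower than in both amacrine samples, against 28.9% of genes. The median difference of all tested genes was itself -0.51 in both photoreceptor comparisons and -0.06 in the ganglion minus amacrine comparison. Per cell, photoreceptors detected 4 members in H1, none in E1 and 1 in the rod, ganglion cells 3 to 8 and amacrine cells 3 to 7. Photoreceptor E1 detected 2234 genes in all, more than ganglion C7, which detected 1517 genes and 3 members.

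**Figure D3:**
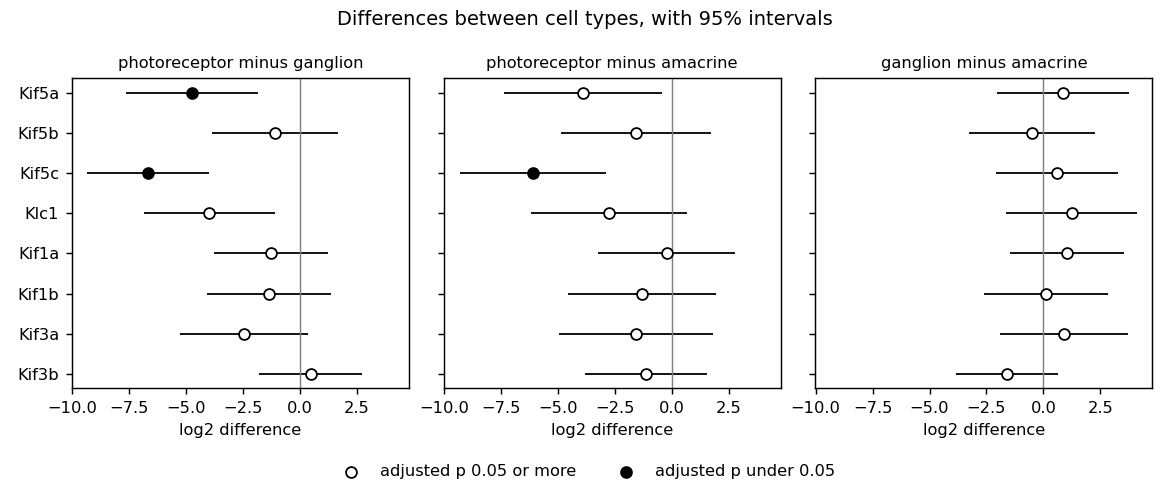
Log2 difference of each member between cell types, with its 95% interval, in 3 panels: photoreceptor minus ganglion, photoreceptor minus amacrine and ganglion minus amacrine. Filled points have an adjusted p under 0.05 (limma): Kif5c and Kif5a against ganglion cells and Kif5c against amacrine cells, all below 0.

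P0 is the stage at which the 3 types can be set side by side, with 2 photoreceptors, 4 ganglion cells and 5 amacrine cells and, at 1 sample a type, no test. Kif5c averaged 7.64 in photoreceptors, 14.39 in ganglion cells and 13.55 in amacrine cells. Klc1 averaged 7.64 in photoreceptors, 11.08 in ganglion cells and 10.87 in amacrine cells, so that ganglion and amacrine cells differed by 0.21 at this stage, less than the SD of 1.08 between the ganglion cells. Kif5b ran the other way, with means of 10.26 in photoreceptors, 9.37 in ganglion cells and 10.16 in amacrine cells, though the photoreceptor mean joins 12.13 in H1 and 8.39 in E1. Kif1a averaged 7.64 in photoreceptors, 10.25 in ganglion cells and 8.77 in amacrine cells, and Kif1b averaged 10.05 in photoreceptors, 12.26 in ganglion cells and 13.01 in amacrine cells. Of the kinesin-2 genes, Kif3a averaged 9.28 in photoreceptors, 9.77 in ganglion cells and 9.99 in amacrine cells, and Kif3b averaged 10.12 in photoreceptors, 8.29 in ganglion cells and 9.42 in amacrine cells.

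The other probe sets of each gene gave fewer detections. Of the 33 probe sets, 14 were detected in at least 3 cells and 10 in none. Kif5c was read by 1 probe set almost alone: of its other 3, 1422945_a_at was detected in amacrine G3 only, and 1450804_at and 1457255_x_at in no cell. The other 2 probe sets of Kif5a, 1427635_at and 1450249_s_at, were detected in no cell. For Kif5b, 1418429_at was detected in 0 of 3 photoreceptors, 4 ganglion cells and 3 amacrine cells, and any of its 6 probe sets in 1 photoreceptor, 9 ganglion cells and 5 amacrine cells. Taking any probe set also raised Kif3a to 2 of 3 photoreceptors and 11 of 13 ganglion cells, Kif3b to 2 photoreceptors and Klc1 to 1 photoreceptor. It left Kif5a and Kif5c at 0 of 3 photoreceptors. When all probe sets of a gene were averaged, the photoreceptor minus ganglion difference was -1.38 for Kif5c (limma, adjusted p = 0.497) and -1.24 for Kif5a (limma, adjusted p = 0.578), so neither call held under that reading.

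**Figure D4:**
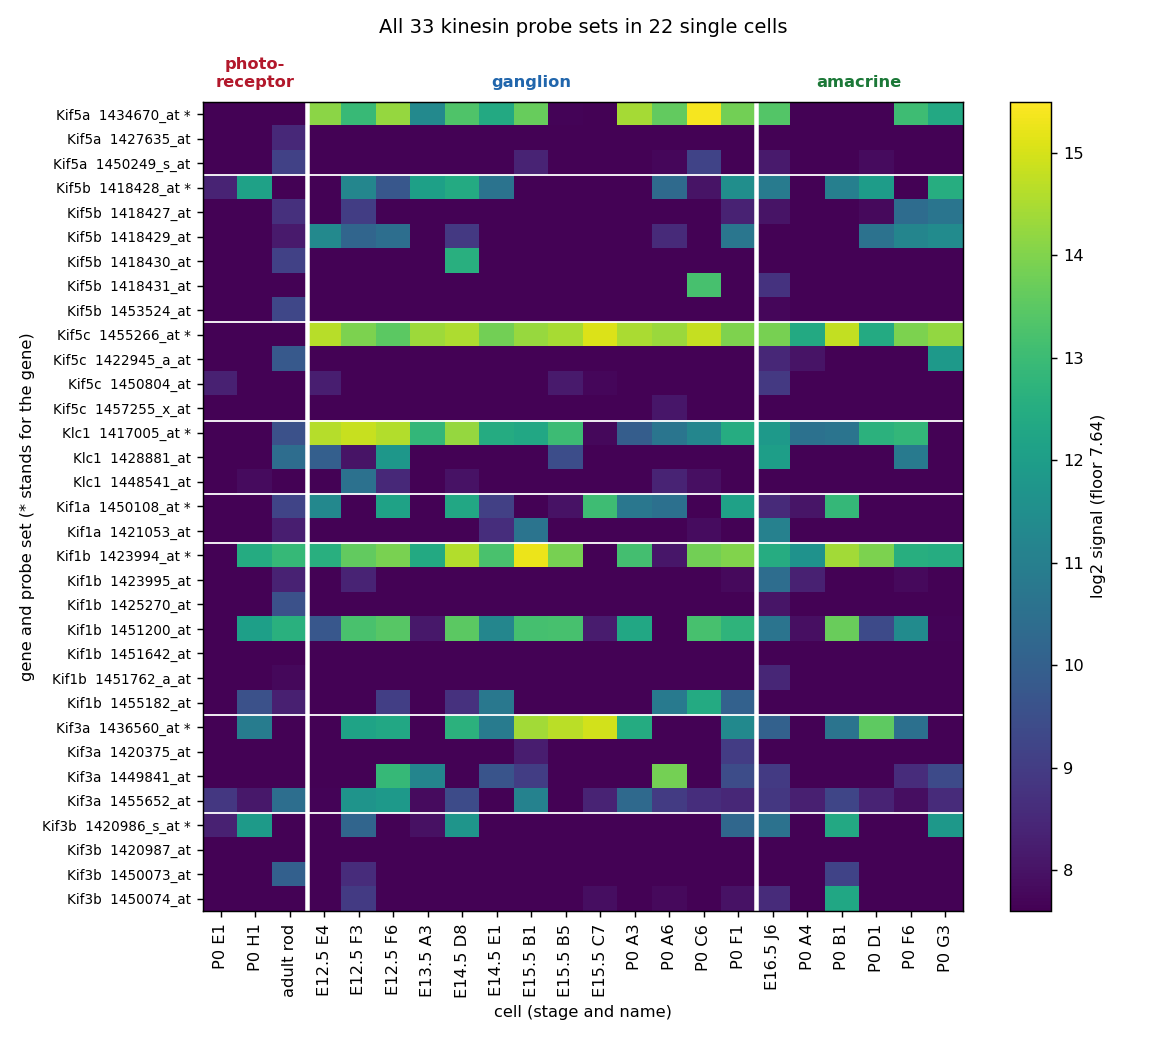
Log2 signal (colour, from the floor of 7.64 in dark blue to above 15 in yellow) of all 33 probe sets of the 8 genes (rows, an asterisk marking the probe set that stands for the gene) in each of the 22 cells (columns, photoreceptors at the left, then ganglion and amacrine cells). For Kif5a and Kif5c the detections lie almost wholly in 1 row each.

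Genes with the pattern most like that of each Kif5 paralogue were ranked by Pearson correlation of log2 signal over the 22 cells, which describes cells of shared type and stage. For Kif5c these were Ina (r = 0.97), Gng3 (0.96), Stmn2 (0.94), Map2 (0.90) and Crmp1 (0.89). Ina, Gng3, Stmn2 and Crmp1 were, like Kif5c, detected in all 13 ganglion and 6 amacrine cells and in no photoreceptor, and Map2, a dendritic microtubule protein, was detected in 1 photoreceptor as well. Over the same 22 cells Spearman's rho was 0.77 for Ina and 0.58 for Stmn2. For Kif5a the nearest were Fdft1 (0.77), St8sia2 (0.77), Pcmt1 (0.75), Prmt2 (0.75) and Reep5 (0.75), none of them detected in a photoreceptor. For Kif5b they were Tiprl (0.75), Rsrc2 (0.73), Cyth3 (0.72), Ranbp9 (0.72) and Kif3b (0.70).

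Other genes of the transport machinery were taken as lists. Of 24 other transport kinesins 22 were measured and 10 tested. In photoreceptors against ganglion cells 1 of these rose and none fell, with a median difference of -0.26 against -0.51 over all genes. The riser was Klc3, another kinesin light chain, at 13.35 in photoreceptor H1, 14.62 in E1 and 9.78 in the rod, and detected in 1 of 13 ganglion cells and no amacrine cell. Its difference was 3.81 ± 1.19 (SE; limma, adjusted p = 0.0465), and without the rod 5.92 (limma, adjusted p = 0.00622). The call was kept in 7 of the 19 fits without 1 cell in which Klc3 still reached 3 cells. It was lost without amacrine J6 or any 1 of 11 ganglion cells, and kept without F6 of E12.5. Without photoreceptor H1 or E1 or ganglion A3 of P0, where its level was 12.37, Klc3 reached too few cells to be tested. Klc1 and Klc3 had opposite signs, and only Klc3 passed. Klc3 entered the test mainly through photoreceptors, where it was high, so its call is no separate support for a contrast of light chains. Kif2a, a kinesin that takes microtubules apart, had the largest difference of the list, -4.10 (adjusted p = 0.118), and was detected in 0 of 3 photoreceptors, 11 of 13 ganglion cells and 4 of 6 amacrine cells.

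Of 36 cargo adaptors and regulators of kinesin, 32 were measured and 26 tested, of which 1 rose and 1 fell in photoreceptors against ganglion cells, with a median of -0.71 (0.05 against amacrine cells). Crmp1, a collapsin response mediator that binds tubulin, fell by 5.39 ± 1.35 log2 units (SE; limma, adjusted p = 0.00653), a call kept in all 22 fits that left out 1 cell. Clstn1, or calsyntenin, which binds kinesin light chains, rose by 5.04 ± 1.38 (SE; limma, adjusted p = 0.0161). The Clstn1 call rested on the rod: its level was 18.06, against 13.35 in H1 and 15.09 in E1, and without the rod the difference was 3.12 (limma, adjusted p = 0.512). It was also lost without photoreceptor E1, amacrine J6 or ganglion A3 of E13.5, and kept in 18 of 22 such fits. Of 32 dynein and dynactin genes, the motor of transport towards the cell body, 28 were measured and 23 tested and none passed. The median of these 23 was -1.41, with 20 of 23 differences negative, against -0.51 over all genes, and the median against amacrine cells was -1.87. Dynll2, a dynein light chain, had the largest at -4.25 (adjusted p = 0.0926), with detection in 1 of 3 photoreceptors, all 13 ganglion cells and 4 of 6 amacrine cells.

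Intraflagellar transport genes, whose trains kinesin-2 pulls, stood at a median of 0.65 in photoreceptors against ganglion cells, against -0.51 over all genes. All 23 were measured, 16 were tested, 11 of the 16 differences were positive and 1 passed. Against amacrine cells the median of the list was 0.03, with 8 positive and 8 negative differences. The gene that passed against ganglion cells, Ift43, rose by 4.86 ± 1.44 (SE; limma, adjusted p = 0.0318), with 12.95 in photoreceptor H1, 7.64 in E1 and 16.93 in the rod, on which the call rested: without the rod the difference was 1.54 (limma, adjusted p = 0.754). It was also lost without photoreceptor H1, amacrine J6 or ganglion D8 of E14.5 or A3 of E13.5, and kept in 17 of 22 such fits. Ift20 had a difference of 4.14 (limma, adjusted p = 0.0883), with detection in 1 of 3 photoreceptors, 3 of 13 ganglion cells and 3 of 6 amacrine cells. Of 13 mitotic kinesins 1, Kif22, was tested, at 0.17. No gene of any of these 5 lists passed in photoreceptors against amacrine cells or in ganglion against amacrine cells. The largest list differences between ganglion and amacrine cells included App, a membrane protein carried along axons, at 3.40, with detection in 12 of 13 ganglion cells and 1 of 6 amacrine cells, and Rab3a at 2.48 (adjusted p = 0.999 for both, limma).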

How the data were processed

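Each of the 22 arrays (Affymetrix mouse expression array) measured 1 retinal cell. The deposited values are signal intensity on a linear scale, computed by the authors with MAS5 per the submitters' processing notes, without detection calls. Of 22 arrays, 21 had a 2% trimmed mean of 500, and P0 amacrine cell B1 had 18.1 and was multiplied by 27.6. From the deposited intensity, log2 values were computed after a floor of 200. Of 45101 probe sets, 34958 named 1 gene, 932 several and 9211 none. The 64 control probe sets were left out. A gene was read from its probe set with the highest mean and tested if it reached 1000 in at least 3 cells. Cells of a type and stage were averaged into 1 sample (9 samples), since no animal is named and cells are not replicates.

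Cell types were compared with limma 3.58.1 in R 4.3.3 (1 mean per type, eBayes with trend, Benjamini-Hochberg over 7183 genes). The estimated prior degrees of freedom were infinite, so each gene's error came from the trend of variance on level and not from its own spread. Tested on simulated data, the fit recovered the added shifts, but the share of unchanged genes among its calls ran above the nominal level in most simulations, so calls near the threshold are the least certain. Kif5 paralogues were compared by exact permutation over samples. The number of arrays limits the precision. Named genes were the 8 members, the 5 genes most correlated with each Kif5 paralogue, and of each list the genes past the threshold and the 2 largest differences, of which some are given. The members and lists were chosen with earlier results of these data known. No pair of arrays held the same values (highest Pearson correlation 0.61 over 231 pairs). Alternatives changed the floor, the filter, the normalization, the probe set rule, the variance model, the averaging and the cells included.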

Additional observations from a re-analysis of the deposited data

Results flagged for a closer look

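Within groups of 4 or 5 cells of a type and stage, 3 of 16 sets of member values held a cell whose gap to the next was large against the group's range. Chance gives about 1 in 20 for values without ties; many values here tie at the floor, so that rate does not hold. Kif1a stood at 12.86 in P0 amacrine cell B1, against 8.04 in the nearest of the other 4, of which 3 were at the floor. Cell B1 is the one whose array was rescaled, and its Kif1b and Kif5c levels were also the highest of the P0 amacrine cells, at 14.42 and 14.78. Kif1b stood at 8.07 in P0 ganglion cell A6, against 13.15 in the nearest of the other 3. Kif3b stood at 10.25 in P0 ganglion cell F1, with the other 3 at the floor of 7.64, so that any single detected cell would have stood out. Cell F1 detected 4351 genes, the most of any cell, and all 8 members.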

How the results depend on the processing

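Values are log2 differences, with adjusted p from limma. The alternative with cells as units came close to counting cells as independent replicates. It is among those that kept the Kif5c and Kif5a calls below. The Kif5c call in photoreceptors against ganglion cells was kept under 12 of 13 alternatives and lost when the probe sets of a gene were averaged (-1.38, adjusted p = 0.497). The Kif5a call there was kept under 4 of 13. It was lost with a floor of 500 (-3.59, adjusted p = 0.107), no filter on dim genes (-4.74, adjusted p = 0.321), quantile normalization (-4.79, adjusted p = 0.0628), averaged probe sets (-1.24, adjusted p = 0.578), gene-wise variances (-4.74, adjusted p = 0.341), eBayes without trend (-4.74, adjusted p = 0.0593) and medians over cells (-4.39, adjusted p = 0.330). With alternatives added after the data were seen, it was lost without the rod and amacrine J6 (-4.74, adjusted p = 0.374) and without both E14.5 ganglion cells (-4.63, adjusted p = 0.113). These settings left 1 member called, except averaged probe sets, which left 0. The Kif5c call against amacrine cells was kept under 6 of 13. It was lost, leaving 0 members called, with a floor of 500 (-4.76, adjusted p = 0.104), genes detected in at least 6 cells (-6.08, adjusted p = 0.0504), averaged probe sets (-1.58, adjusted p = 0.607), each probe set by itself (-6.08, adjusted p = 0.0544), medians (-6.27, adjusted p = 0.0632), without the rod and J6 (-5.91, adjusted p = 0.133) and without the E14.5 ganglion cells (-6.08, adjusted p = 0.104).

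No member was called between ganglion and amacrine cells under any of the 13. Signs that turned were all of differences that passed no test. With averaged probe sets, ganglion minus amacrine became -0.20 for Kif5c, -0.18 for Kif1a, -0.015 for Kif1b, -0.12 for Klc1 and -0.023 for Kif5c minus Kif5b. Kif1b also turned with quantile normalization (-0.21), cells with type and stage as a random group (-0.14), without the rod and J6 (-0.16) and without the E14.5 cells (-0.18). Kif1a turned to 0.33 in photoreceptors minus amacrine cells with medians. Without the rod and J6, Kif5b turned to 0.23 against ganglion and 0.10 against amacrine cells, and Kif3b to 0.70 against amacrine cells. Where no value shows the cause, the cause was not tested.

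Leaving out 1 cell at a time gave 1 to 2 members called against ganglion cells and 0 to 1 against amacrine cells. In photoreceptors minus ganglion cells, Kif5a ran from -5.01 to -4.34, Kif5b from -2.01 to 0.23 and Kif3b from -0.43 to 1.71. Against amacrine cells, Kif5c ran from -6.22 to -5.91, Kif1a from -1.01 to 0.28 and Kif3b from -2.01 to 0.12. In ganglion minus amacrine cells, Kif1b ran from -0.21 to 0.55 and Kif5a minus Kif5c from -0.16 to 1.97. At a detection level of 500, Kif1a and Klc1 were each detected in 1 photoreceptor. No paired analysis was possible because the labels name no animal by which cells could be paired.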
